A study of Mus musculus with 503 samples.

Results

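Iron transport and storage genes were followed in perivascular cells sorted from the mouse spinal cord. The set holds 9 of the 56701 gene rows of the count table: *Trf*, *Tfrc*, *Slc40a1*, *Slc11a2*, *Slc39a14*, *Fth1*, *Ftl1*, *Hmox1* and *Cp*. *Trf* was picked because it differed between the sorted populations, so its difference between sorts is given as a description, and the other 8 genes were added as its functional neighbours. All 9 rows were present in the table, and 8 of them reached 10 CPM (counts scaled to 1000000 per population) in at least 1 uninjured population, while *Slc39a14* reached it only in populations taken after injury.

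The cells came from *GLAST-CreERT2;R26R-tdTomato;Pdgfrb-eGFP* mice, which the labels give as female. The study's reporting summary gives both sexes for sequencing, while its methods give only females for crush lesions. In this cross a tamoxifen-inducible Cre under control of the *GLAST* (*Slc1a3*) gene switches on tdTomato, and *Pdgfrb-eGFP* marks cells that use the PDGFRβ gene. Cells positive for both reporters (tdTomato+EGFP+) and cells with EGFP alone (tdTomato-EGFP+) were sorted one by one from uninjured cord and from the lesion segment 3 days after a complete crush (spinal cord injury, SCI), and were profiled by Smart-seq3, a plate-based single-cell RNA sequencing method. A tdTomato-EGFP+ cell may also be a GLAST-expressing cell that did not recombine, which limits this population as a control. After filtering 468 cells remained: on uninjured plates 209 and 213 there were 65 and 72 tdTomato+EGFP+ and 46 and 60 tdTomato-EGFP+ cells, and on injured plates 211 and 215 there were 88 and 34 tdTomato+EGFP+ and 58 and 45 tdTomato-EGFP+ cells. No label ties a cell to an animal, so each of the 4 populations was treated as 1 sample and no difference was tested. Intervals in brackets are exact 95% intervals that cover counting error only.

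Summed counts were 25645409 to 38406035 per population. Both sorts were on every plate but no plate held both uninjured and injured cells, so the sorts could be read within plates as well as in the sums over plates, whereas injury and plate cannot be told apart. In the injured tdTomato+EGFP+ population 94.6% of counts came from plate 211, against 47.6% in the injured tdTomato-EGFP+ population, and its cells on plate 215 were shallow, with a median of 14770 counts against 328802 on plate 211. Endothelial markers went against the perivascular label: *Pecam1* was above 1 on the ln(1 + counts per 10000) scale in 91 (66.4%) uninjured tdTomato+EGFP+ and 66 (62.3%) uninjured tdTomato-EGFP+ cells, but in 2 (1.64%) and 23 (22.3%) of those after injury. Such cells are called cells with high *Pecam1* from here on. Over all 5 endothelial markers, summed levels were 4165.5 and 4324.0 CPM in the uninjured tdTomato+EGFP+ and tdTomato-EGFP+ populations, and 399 and 1744.8 CPM after injury. The 9 pericyte markers summed to 711 CPM in the injured tdTomato+EGFP+ population and to between 11165.9 and 12268.0 CPM in the other 3.

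Vertebrate cells take up iron mostly as transferrin, the plasma iron carrier encoded by *Trf*, which binds the transferrin receptor encoded by *Tfrc* and is drawn into endosomes, where iron is released and passed to the cytosol by divalent metal transporters. Surplus iron is stored in ferritin, a shell of heavy and light chains encoded by *Fth1* and *Ftl1*, or leaves the cell through ferroportin, encoded by *Slc40a1*, aided by the ferroxidase ceruloplasmin, encoded by *Cp*. Heme oxygenase 1, encoded by *Hmox1*, frees iron from heme. In the central nervous system transferrin messenger RNA is best known from oligodendrocytes, and the brain and cord endothelium carries iron across the blood barrier.

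Several of these messenger RNAs carry iron-responsive elements, short hairpins with a CAGTG loop that iron regulatory proteins bind when iron is scarce. An element in the 5′ UTR blocks translation, and elements in the 3′ UTR protect the transcript from decay, so the level of *Tfrc* messenger RNA itself is under this control. The sequences are shown as matches to 1 strict pattern, in which all 5 stem bases pair. A member without a match may still carry an element that departs from this pattern, so the search does not sort the members by iron control. The search looked, on the transcript strand, for C, then 5 bases, CAGTG, a base other than G, and 5 bases that pair with the first 5 with at most 1 G-T pair. It found 7 sites in 4 of the 9 members, and at least 1 site in 110 of 21877 protein-coding genes (0.503%). Each line gives 30 bases of GENCODE M21 transcript sequence (GRCm38, mm10), 5′ to 3′, with the CAGTG in capitals. The *Tfrc* sites are in the 3′ UTR, exon 19 of 19, of the plus strand at chr16:32631218-32631247, chr16:32631597-32631626, chr16:32631662-32631691 and chr16:32631709-32631738. The *Slc40a1* site is in the 5′ UTR in exon 1 of 8 (chr1:45925465-45925494, minus strand), the *Fth1* site in the 5′ UTR in exon 2 of 5 of the longest principal transcript (chr19:9982731-9982760, plus strand), and the *Ftl1* site in the 5′ UTR in exon 1 of 4 (chr7:45459779-45459808, minus strand).
Tfrc site 1: taattatcggaagCAGTGccttccataatt
Tfrc site 2: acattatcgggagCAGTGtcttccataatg
Tfrc site 3: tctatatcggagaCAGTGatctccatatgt
Tfrc site 4: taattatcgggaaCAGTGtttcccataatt
Slc40a1: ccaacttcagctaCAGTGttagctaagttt
Fth1: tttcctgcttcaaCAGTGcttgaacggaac
Ftl1: tgtcttgcttcaaCAGTGtttgaacggaac

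**Figure D1:**
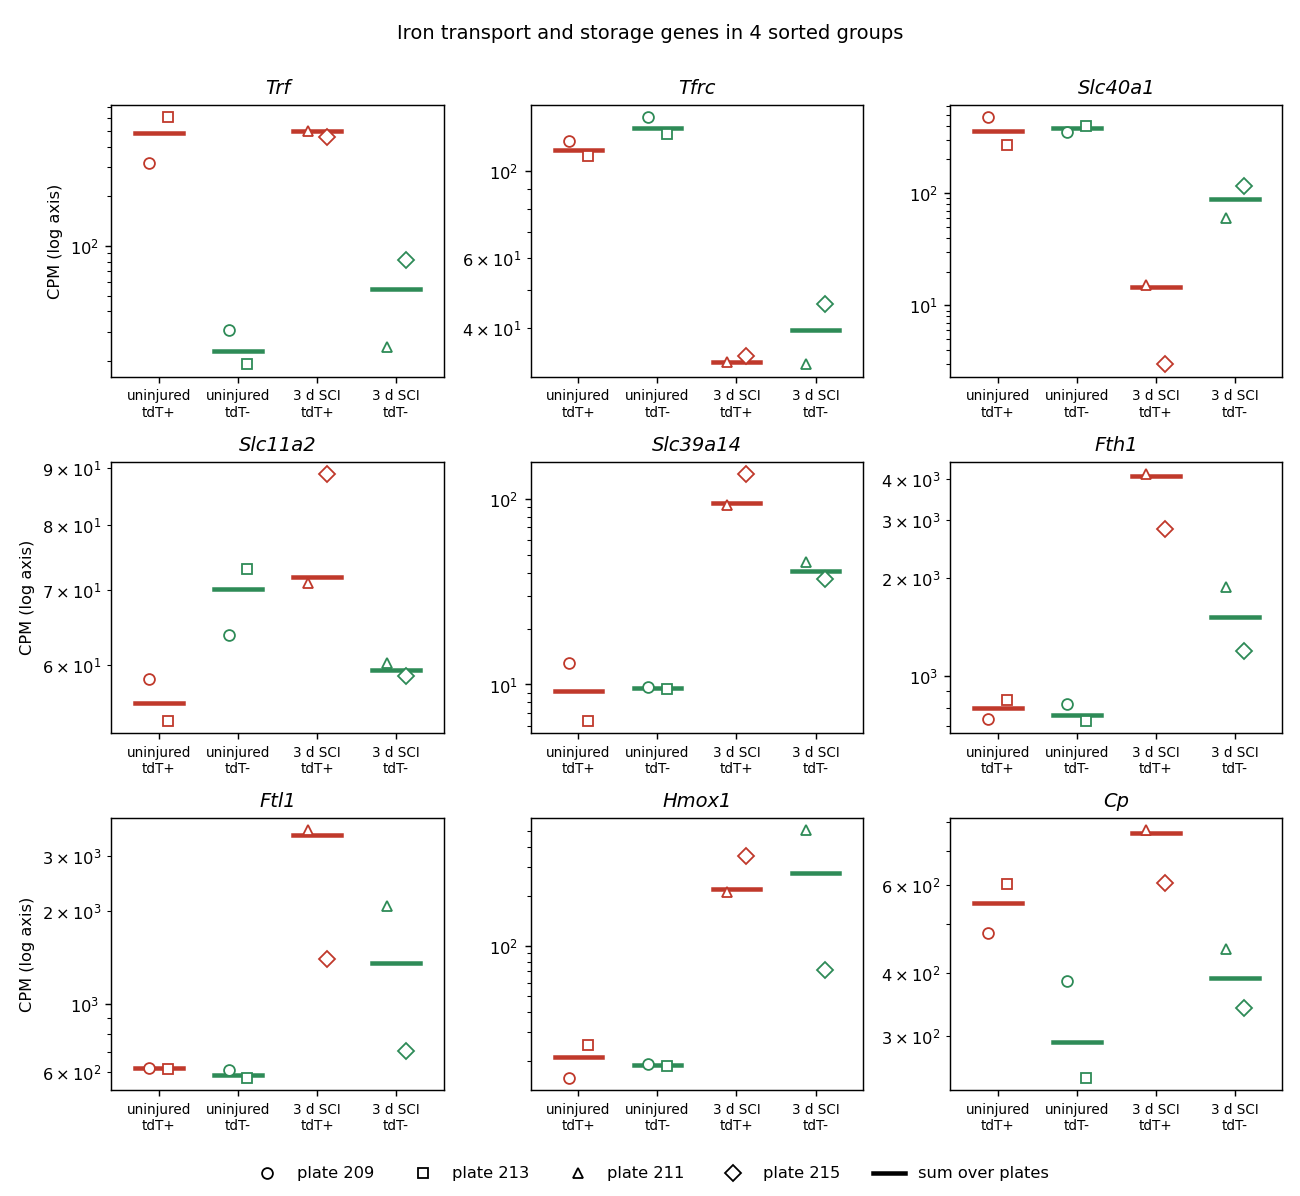
Summed level (CPM, log axis) of each of the 9 genes in the 4 populations. The horizontal lines are the population sums and the symbols the sums on each plate. *Trf* was high in both tdTomato+EGFP+ populations (485 and 499 CPM) and low in both tdTomato-EGFP+ populations (22.9 and 54.4 CPM), whereas *Fth1*, *Ftl1*, *Slc39a14* and *Hmox1* were high in the injured populations and *Tfrc* and *Slc40a1* in the uninjured ones.

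*Trf* (chr9:103204001-103230444, minus strand) separated the sorts before and after injury. Its summed level was 485 CPM (478 to 492) in uninjured tdTomato+EGFP+ cells, with 319 CPM on plate 209 and 604 CPM on plate 213. In uninjured tdTomato-EGFP+ cells it was 22.9 CPM (21.1 to 24.8), with 31.03 and 19.1 CPM on the same plates. After injury it was 499 CPM (491 to 507) in tdTomato+EGFP+ cells, with 501 CPM on plate 211 and 460 CPM on plate 215, and 54.4 CPM (51.6 to 57.3) in tdTomato-EGFP+ cells, with 24.3 and 81.8 CPM. All 4 tdTomato+EGFP+ plate sums therefore lay above all 4 tdTomato-EGFP+ plate sums.

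The distribution over cells differed more than the sums. In uninjured tdTomato+EGFP+ cells 63 cells (45.99%) had a *Trf* count and the median cell was at 0 CPM, the 90th percentile at 1786.4 CPM and the highest cell at 4876.1 CPM. Among injured tdTomato+EGFP+ cells 87.7% had a count and the median cell was at 233 CPM. At nearly the same sum, a *Trf* count was thus present in a minority of cells before injury and in most cells after it. The injured cells were still uneven, with the 90th percentile at 1617.0 CPM and 14.4% of the counts in the highest cell. When each cell was thinned to 20000 counts and shallower cells were left out, the share of cells with a *Trf* count was 32.3% (24.3 to 41.2) of uninjured and 82% (73.1 to 88.97) of injured tdTomato+EGFP+ cells, with 10 and 22 cells left out. In the tdTomato-EGFP+ populations the thinned shares were 11.96% (6.12 to 20.4) and 23.5% (15.7 to 32.96), with 14 cells and 1 cell left out. Without thinning these 4 shares were 45.99%, 87.7%, 20.8% and 34.95%.

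Because oligodendrocytes make transferrin, their markers were read beside *Trf*. The 8 oligodendrocyte markers read here summed to 118.2 and 140.4 CPM in uninjured tdTomato+EGFP+ and tdTomato-EGFP+ cells, and to 58.9 and 86.8 CPM after injury, with plate sums of the 2 sorts that overlapped at both times. Most of each sum was *Cnp*, at 69.9 and 90.7 CPM before and 53.4 and 77.95 CPM after injury, whereas *Mbp* (27.3 and 25.2 CPM) and *Aspa* (19.6 and 16.3 CPM) were slightly higher in the tdTomato+EGFP+ sort before injury. *Opalin* was at 0 in the uninjured tdTomato+EGFP+ and the injured tdTomato-EGFP+ population, *Mog* and *Ermn* in the uninjured tdTomato-EGFP+ population, and *Ermn* in the injured tdTomato+EGFP+ population. Leaving out every cell in which these markers summed to more than 100 CPM changed the *Trf* difference between sorts, on the log2(CPM + 1) scale, from 4.34 to 3.22 before injury and from 3.18 to 3.27 after it. The part of oligodendrocyte RNA in the *Trf* level was not tested further.

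To locate *Trf* among the sorted cells, the 468 cells were clustered on 2000 variable genes from which the 9 members had been left out. This gave 6 clusters. Cluster 4 (71 cells) raised 8 of 8 perivascular fibroblast markers and was fibroblast-like, cluster 5 (48 cells) raised 6 of 9 pericyte markers and was pericyte-like, and cluster 6 (18 cells) raised 5 of 6 vascular smooth muscle markers and was smooth muscle-like. Clusters 2 (24.8% of the cells) and 3 (78 cells) raised 8 and 9 of 9 pericyte markers together with all 5 endothelial markers and stayed unnamed. Cluster 1 (29.3% of the cells), in which 6 of 6 cycling and 5 of 8 fibroblast markers were raised, was also left unnamed, and 100 of its cells were injured tdTomato+EGFP+ cells.

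**Figure D2:**
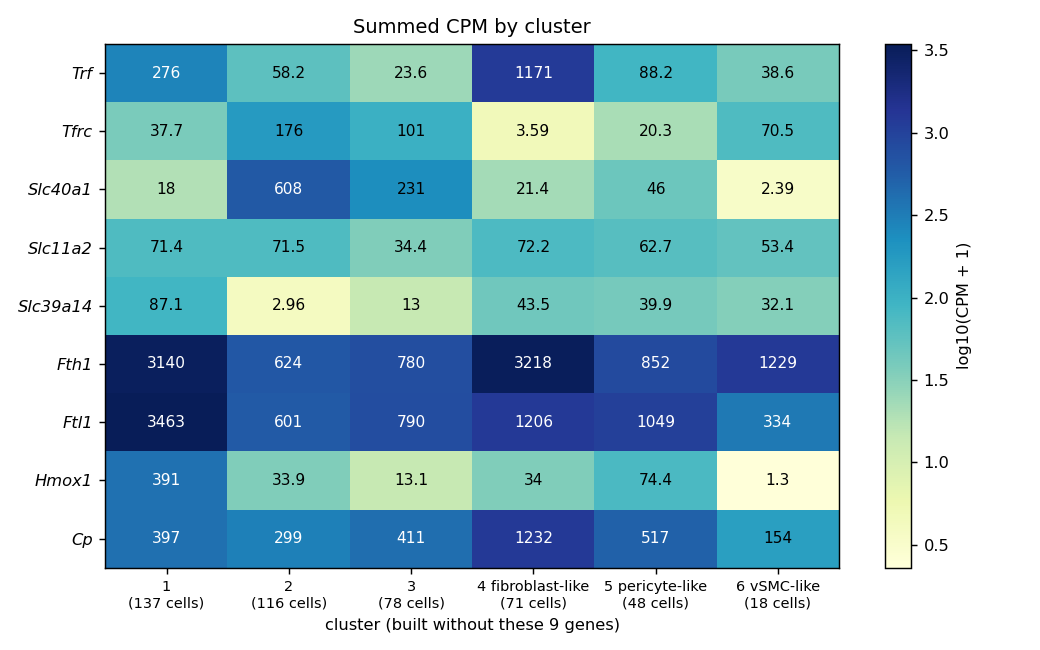
Heat map of the summed level (CPM, on a log scale) of each of the 9 genes in the 6 clusters, with cluster size in cells. *Trf* and *Cp* were highest in the fibroblast-like cluster 4 (1170.9 and 1232.3 CPM), *Tfrc* and *Slc40a1* in cluster 2 (176 and 608 CPM), and *Ftl1* and *Hmox1* in cluster 1 (3462.6 and 391 CPM).

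*Trf* in uninjured tdTomato+EGFP+ cells was concentrated in the fibroblast-like cluster, which held 90.2% of the population's *Trf* counts and 22.98% of its counts overall. There its summed level was 1901.8 CPM over 26 cells, of which 24 had a count, with a median cell of 1998.7 CPM and a highest cell of 4876.1 CPM. On plates 209 and 213 the level in this cluster was 1457.2 and 2118 CPM. The 8 fibroblast-like cells of the uninjured tdTomato-EGFP+ population stood apart: their level was 52.3 CPM, only 2 of 8 had a count, and without the highest cell it was 0.563 CPM.

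After injury the same cluster again split by sort. The 18 fibroblast-like tdTomato+EGFP+ cells had a *Trf* level of 1557.6 CPM, 17 of 18 had a count and the median cell was at 1458.5 CPM. Leaving out the highest cell gave 1146.7 CPM. The 19 fibroblast-like tdTomato-EGFP+ cells held 1 *Trf* count between them, a level of 0.199 CPM (0.00504 to 1.11). The summed *Trf* levels of the fibroblast-like cells thus differed between the sorts at both times. *Trf* was picked for its difference between these sorts, so this only describes where that difference lay. Coarser clustering at resolution 0.3 merged the 71 cells into a cluster of 207, in which *Trf* was at 1882 and 42.6 CPM in the uninjured sorts and at 499.6 and 16.1 CPM in the injured sorts. At resolution 1 a cluster of 74 cells held all 71, with 1902, 52.3, 1534 and 2.09 CPM in the same order.

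The fibroblast-like cells of the 2 sorts also differed in other genes. Those given here were chosen in part after their values were seen, and the other fibroblast markers are not given for this cluster. *Lum* and *Slc1a3* were higher in tdTomato+EGFP+ cells, as *Trf* was, whereas *Pi16* was lower. *Pi16*, a marker of adventitial fibroblasts, was at 542 CPM in uninjured tdTomato+EGFP+ and 3109.6 CPM in uninjured tdTomato-EGFP+ fibroblast-like cells, and at 92.7 and 2743.6 CPM after injury. *Lum*, which encodes the matrix proteoglycan lumican, was at 1778.3 and 663 CPM before and at 4640.6 and 801 CPM after injury. *Slc1a3*, the gene whose promoter drives the Cre, was at 754 and 35.2 CPM before injury and at 696 and 20.9 CPM after it. The clustering had used these genes, and their part in the *Trf* difference was not tested.

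A second site of *Trf* appeared after injury. Cluster 1 held 55.2% and the fibroblast-like cluster 44.6% of the *Trf* counts of injured tdTomato+EGFP+ cells. In cluster 1 the level was 327 CPM over 100 tdTomato+EGFP+ cells, of which 87 had a count, with a median cell of 172 CPM, and 32.98 CPM over 17 tdTomato-EGFP+ cells, of which 9 had a count. In injured tdTomato-EGFP+ cells 69.5% of the *Trf* counts lay in the pericyte-like cluster 5, at 87.6 CPM over 47 cells, of which 17 had a count. A single cell held 41.07% of the *Trf* counts of those 47 cells, and the cluster held 43.15% of the population's counts overall. Clusters 2 and 3 of this population were at 59.85 and 62.12 CPM.

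**Figure D3:**
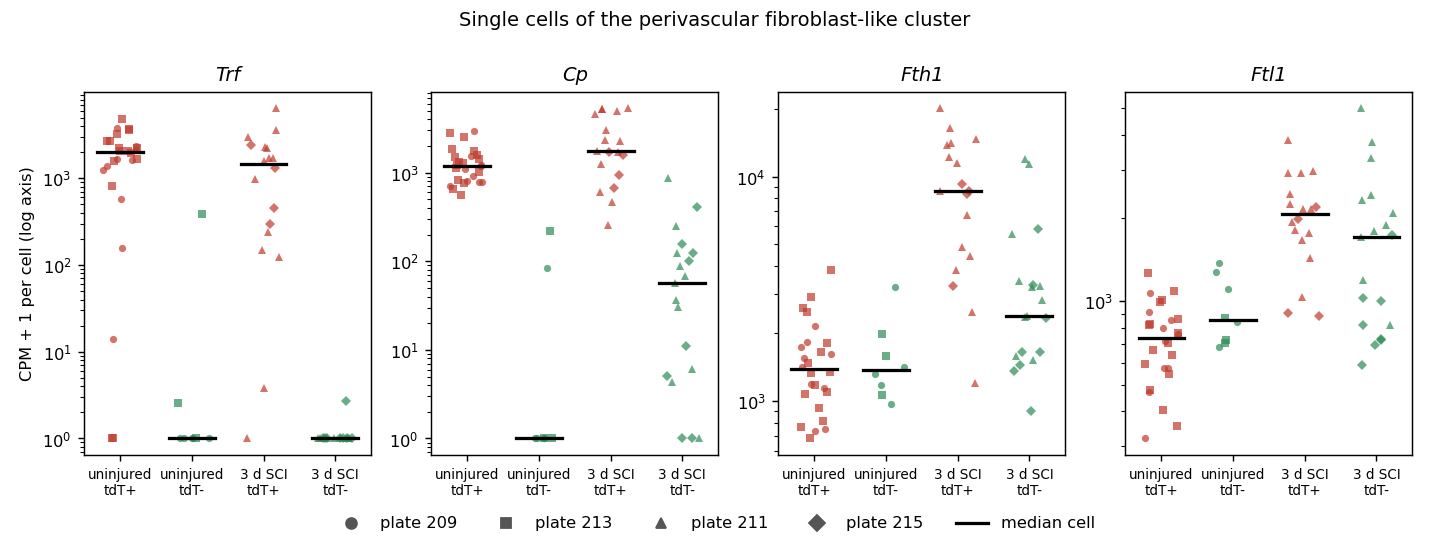
*Trf*, *Cp*, *Fth1* and *Ftl1* in each fibroblast-like cell of cluster 4 (CPM, 1 point per cell), by population, with 26, 8, 18 and 19 cells; the line marks the median cell. The median *Trf* cell was at 1998.7 and 1458.5 CPM in the tdTomato+EGFP+ sort and at 0 in both tdTomato-EGFP+ populations, with single cells that overlapped, while *Fth1* was highest in injured tdTomato+EGFP+ cells, with a median of 8649.8 CPM.

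*Cp* (chr3:19957054-20009145, plus strand), the copper-carrying ferroxidase that loads iron onto transferrin, followed a pattern like that of *Trf* within the fibroblast-like cells but a weaker one in the sums. The summed level was 552 CPM (544 to 559) in uninjured tdTomato+EGFP+ cells, with 482 and 602 CPM on plates 209 and 213. In uninjured tdTomato-EGFP+ cells it was 292 CPM (286 to 299), with 386 and 248 CPM. After injury it was 760 CPM (750 to 769) and 391.6 CPM (384 to 399) in the 2 sorts. All 4 plates had more *Cp* in the tdTomato+EGFP+ cells than in the tdTomato-EGFP+ cells of that plate, by 0.32 to 1.27 on the log2(CPM + 1) scale.

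Among fibroblast-like cells of uninjured cord *Cp* reached 1351.4 CPM in the tdTomato+EGFP+ sort, with a count in 26 of 26, and 32.2 CPM in the tdTomato-EGFP+ sort, with a count in 2 of 8. After injury it was at 2804.8 CPM, with a count in 18 of 18 tdTomato+EGFP+ cells, and at 118.8 CPM, with a count in 16 of 19 tdTomato-EGFP+ cells. No tdTomato+EGFP+ fibroblast-like cell was without *Cp*, the lowest being at 558 CPM before and 259 CPM after injury. Outside this cluster *Cp* was widespread in both sorts. In cluster 2, for example, it was at 273 and 303 CPM in the 2 uninjured sorts. When the cells with high *Pecam1* were left out, the uninjured difference between sorts rose from 0.91 to 3.03 on the log2(CPM + 1) scale and passed the call rule described below.

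The uptake receptor and the exporter shared another distribution. *Tfrc* (chr16:32608920-32632794, plus strand) had 112.8 CPM (109.5 to 116.2) in uninjured tdTomato+EGFP+ and 127.8 CPM (123.6 to 132.1) in uninjured tdTomato-EGFP+ cells, with plate sums from 108.7 to 136.3 CPM. After injury it had 32.9 CPM (30.9 to 34.9) and 39.5 CPM (37.1 to 41.97), with plate sums from 32.4 to 45.9 CPM. Uninjured and injured plate sums did not overlap. The plate sums of tdTomato-EGFP+ cells were above those of tdTomato+EGFP+ cells before injury and overlapped with them after it. With cells thinned to 20000 counts, a *Tfrc* count was present in 49.6% (40.6 to 58.6) of tdTomato+EGFP+ and 51.1% (40.4 to 61.7) of tdTomato-EGFP+ cells before injury. After injury the shares were 41% (31.3 to 51.3) and 19.6% (12.4 to 28.7). Without thinning they were 58.4% and 59.4% before and 65.6% and 48.5% after injury, and so the shares of tdTomato+EGFP+ cells before and after injury overlapped in their intervals although the CPM did not.

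*Slc40a1* (chr1:45908068-45926523, minus strand) had 355 CPM (349 to 361) in uninjured tdTomato+EGFP+ cells, with 474 and 270 CPM on plates 209 and 213, and 382 CPM (374 to 389) in uninjured tdTomato-EGFP+ cells, with 351 and 396 CPM. After injury it had 14.6 CPM (13.2 to 15.95) in tdTomato+EGFP+ cells, with 15.2 CPM on plate 211 and 2.98 CPM on plate 215, and 88.98 CPM (85.4 to 92.7) in tdTomato-EGFP+ cells, with 60.2 and 115.1 CPM. The sorts overlapped before injury and did not overlap after it.

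Both genes lay mainly in cluster 2, which held 80.3% and 83.2% of the *Slc40a1* counts of the uninjured tdTomato+EGFP+ and tdTomato-EGFP+ populations, and 66.2% and 81.8% of their *Tfrc* counts. Clusters 2 and 3 together held 59 and 39 uninjured tdTomato+EGFP+ cells and 51 and 23 uninjured tdTomato-EGFP+ cells, but 1 and 2 injured tdTomato+EGFP+ cells and 5 and 14 injured tdTomato-EGFP+ cells. Among the tdTomato-EGFP+ cells of these clusters that remained after injury, *Slc40a1* was at levels near those before it: 632 CPM in the 5 injured tdTomato-EGFP+ cells of cluster 2, against 627 and 583 CPM in the 59 and 51 uninjured cells of the 2 sorts. A single cell held 56.7% of those 5 cells' counts. In cluster 3 it was at 217 and 267 CPM in the 2 uninjured sorts and at 211 CPM in 14 injured tdTomato-EGFP+ cells. The few injured tdTomato+EGFP+ cells had less, with no count in the 1 cell of cluster 2 (0 to 283 CPM) and 148.8 CPM in the 2 cells of cluster 3, all of it from 1 cell. In a sum over cells, fewer cells of a kind and less RNA per cell cannot be told apart.

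**Figure D4:**
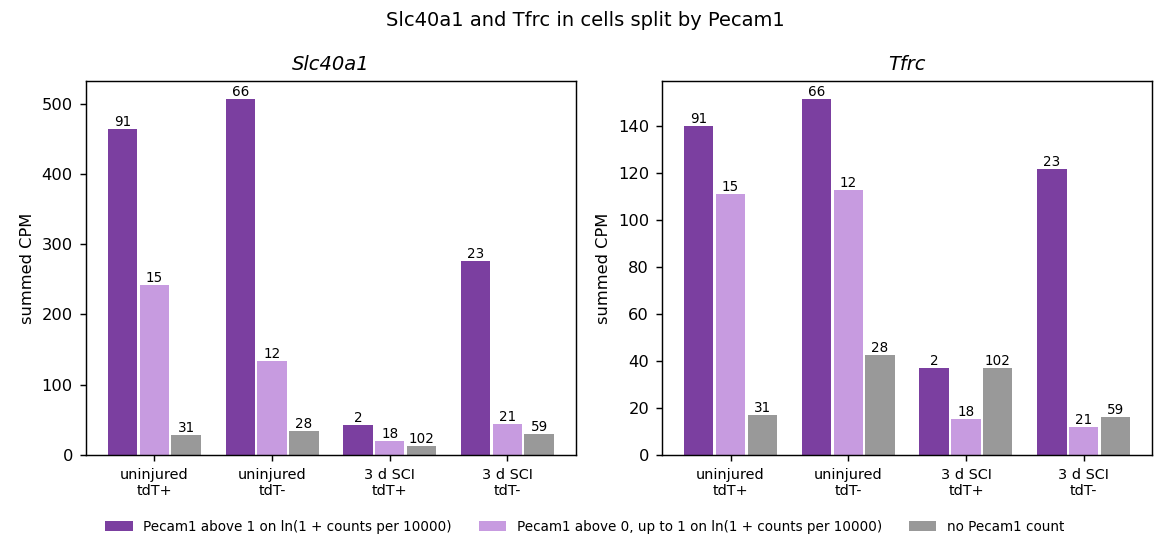
Summed level (CPM) of *Slc40a1* and *Tfrc* in each population, split by the *Pecam1* level of the cell on the ln(1 + counts per 10000) scale (above 1, up to 1, no count); the number above a bar is its number of cells. *Slc40a1* was at 464 and 507 CPM in uninjured cells with high *Pecam1* and at 28 and 33.6 CPM in uninjured cells without a *Pecam1* count.

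The cells were also split by *Pecam1* itself, a choice made after the data were seen. In uninjured cells *Slc40a1* was at 464 CPM (91 tdTomato+EGFP+ cells) and 507 CPM (66 tdTomato-EGFP+ cells) where *Pecam1* was high, and at 28 CPM (31 cells) and 33.6 CPM (28 cells) where it had no count. In injured cells without a *Pecam1* count it was at 12.4 CPM (83.6% of tdTomato+EGFP+ cells) and 29.8 CPM (59 tdTomato-EGFP+ cells). *Tfrc* was at 139.8 and 151.4 CPM in uninjured cells with high *Pecam1* and at 16.96 and 42.6 CPM in those without a count. The 23 injured tdTomato-EGFP+ cells with high *Pecam1* had 121.6 CPM of *Tfrc* and 276 CPM of *Slc40a1*, and the 2 such tdTomato+EGFP+ cells had 36.9 and 42.6 CPM. The summed *Slc40a1* level was thus lower after injury among cells with high *Pecam1* too, for tdTomato+EGFP+ cells in only 2 cells. The split by *Pecam1* was not made within clusters. In tdTomato-EGFP+ cells *Slc40a1* was at 583 and 632 CPM before and after injury in cluster 2. In cluster 3 it was at 267 and 211 CPM. A change in the mix of cells and less RNA per cell cannot be told apart here either. Among cells without a *Pecam1* count, *Tfrc* was at 37.01 CPM in injured tdTomato+EGFP+ cells, above the 16.96 CPM of the 31 uninjured ones.

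The 2 divalent metal transporters diverged. *Slc11a2* (chr15:100387898-100425072, minus strand) encodes DMT1, which moves iron out of endosomes, and it was nearly level: 55.5 CPM (53.2 to 57.95) and 70.1 CPM (67.01 to 73.4) in uninjured tdTomato+EGFP+ and tdTomato-EGFP+ cells, and 71.95 CPM (69 to 74.99) and 59.5 CPM (56.5 to 62.5) after injury. Its 8 plate sums spanned 53.5 to 88.8 CPM. More cells had a count after injury, with thinned shares of 72% (62.1 to 80.5) and 48.04% (38.04 to 58.2) against 29.9% (22.1 to 38.7) and 30.4% (21.3 to 40.9) before it, and unthinned shares of 86.1% and 73.8% against 45.99% and 37.7%. The sums of CPM showed no such order.

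*Slc39a14* (chr14:70303469-70351425, minus strand) encodes ZIP14, which takes up iron that is not bound to transferrin. It had 9.17 CPM (8.23 to 10.2) and 9.56 CPM (8.43 to 10.8) in the uninjured sorts, with plate sums from 6.36 to 13.1 CPM. After injury it had 94.8 CPM (91.4 to 98.3) in tdTomato+EGFP+ cells, with 92.4 and 135.9 CPM on plates 211 and 215, and 40.9 CPM (38.4 to 43.4) in tdTomato-EGFP+ cells, with 45.3 and 36.8 CPM. All 4 injured plate sums were above all uninjured ones. In 1 uninjured tdTomato-EGFP+ cell of the smooth muscle-like cluster lay 50.97% of that population's counts. Within fibroblast-like cells it was at 8.38 and 13.2 CPM in the uninjured sorts and at 118.5 and 51.1 CPM in the injured ones, so the difference with injury was present inside this cluster too.

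The ferritin chains were the most abundant members, and their summed levels were higher after injury in both sorts. *Fth1* (chr19:9980598-9985098, plus strand) had 799 CPM (790.2 to 808) in uninjured tdTomato+EGFP+ and 757 CPM (747 to 768) in uninjured tdTomato-EGFP+ cells, with plate sums from 728 to 844 CPM. After injury it had 4086.5 CPM (4064.1 to 4109.0) in tdTomato+EGFP+ cells, with 4158.6 CPM on plate 211 and 2819.6 CPM on plate 215, and 1512.5 CPM (1497.5 to 1527.6) in tdTomato-EGFP+ cells, with 1869.8 and 1188.2 CPM. The 3 levels were ordered without overlap of plate sums: uninjured cells of both sorts, then injured tdTomato-EGFP+, then injured tdTomato+EGFP+ cells.

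*Ftl1* (chr7:45457944-45459884, minus strand) had 618 CPM (610.2 to 626) and 587 CPM (578 to 596) in the uninjured sorts, with plate sums from 577 to 620.4 CPM. After injury it had 3520.3 CPM (3499.5 to 3541.2) in tdTomato+EGFP+ cells, with 3641.3 CPM on plate 211 but 1395.2 CPM on plate 215, and 1353.1 CPM (1338.9 to 1367.4) in tdTomato-EGFP+ cells, with 2069.9 and 703 CPM. Here the 2 injured sorts overlapped across plates, although tdTomato+EGFP+ cells had more on each plate. Nearly every cell had a count of each chain, and the median cell rose with the sum: for *Fth1* the median cell was at 733 and 649 CPM in the uninjured sorts and at 2942.0 and 1150.6 CPM in the injured ones.

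The ratio of heavy to light chain counts depended on the plate and on the cluster. Over whole populations the ratio of *Fth1* to *Ftl1* counts was 1.29 in both uninjured sorts, 1.16 in injured tdTomato+EGFP+ and 1.12 in injured tdTomato-EGFP+ cells. On plate 215, however, it was 2.02 and 1.69, and on plate 211 it was 1.14 and 0.903. Over all plates the fibroblast-like and smooth muscle-like clusters had ratios of 2.67 and 3.67, against 0.813 to 1.04 in the other 4. Within plates 209 and 213 this order changed, since the 7 and 13 cells of cluster 1 there, with few ferritin counts, had ratios of 3.09 and 2.45, above the 1.71 and 1.86 of the fibroblast-like cells. In fibroblast-like cells *Fth1* was at 1280.9 and 1307.2 CPM in the uninjured sorts and at 8415.4 and 2790.7 CPM in the injured ones, while *Ftl1* was at 678 and 865 CPM and then at 2090.8 and 1489.2 CPM. Ferritin pseudogene rows held few counts, the most being the 898 of *Ftl1-ps1*, 0.489% of those of *Ftl1*. These rows hold only reads that were assigned to them. How reads shared with the parent genes were handled is not known, so the rows set no limit on their effect.

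*Hmox1* (chr8:75093621-75100589, plus strand) was low before injury, with 21.2 CPM (19.8 to 22.7) and 18.9 CPM (17.3 to 20.7) in the 2 sorts and plate sums from 15.9 to 24.99 CPM. After injury it had 221 CPM (216 to 227) in tdTomato+EGFP+ cells, with 214 and 351 CPM on plates 211 and 215, and 276 CPM (270 to 283) in tdTomato-EGFP+ cells, with 502 and 71.6 CPM. All injured plate sums lay above all uninjured ones, and the sorts overlapped.

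Single cells decided part of this level. A tdTomato-EGFP+ cell on plate 211, assigned to cluster 1, held 5603 of the population's *Hmox1* counts (79.1%) among its own 448291 counts, and without it the population was at 58.9 CPM. This cell was also the highest of its population in counts of *Slc39a14*, *Fth1* and *Ftl1*. In injured tdTomato+EGFP+ cells the highest cell held 36.4% and left 142.3 CPM when taken out. Macrophages, which break down heme, were read by 10 microglia and macrophage markers: these summed to 46.8 CPM in the first cell, to 106.5 and 57.5 CPM in the uninjured sorts and to 20.1 and 45.4 CPM in the injured ones. In tdTomato+EGFP+ cells their plate sums were 93.5 to 124.6 CPM before and 17.7 to 63.2 CPM after injury. In tdTomato-EGFP+ cells these were 44.2 to 85.6 and 20.1 to 68.4 CPM, which overlap. Of the 2 injured sorts tdTomato-EGFP+ cells had more of these markers, and more *Hmox1* only with the highest cell included. The median injured cell was at 66.6 CPM of *Hmox1* in the tdTomato+EGFP+ and 21.1 CPM in the tdTomato-EGFP+ sort. The part of these markers' cells in the *Hmox1* level was not tested. The 5 erythroid markers summed to 2.38 to 4.58 CPM in the 4 populations. With cells thinned to 20000 counts, an *Hmox1* count was present in 66% (55.9 to 75.2) and 39.2% (29.7 to 49.4) of the injured tdTomato+EGFP+ and tdTomato-EGFP+ cells, against 10.2% (5.56 to 16.9) and 20.7% (12.9 to 30.4) of uninjured cells. The unthinned shares were 77.9%, 68.9%, 23.4% and 22.6%.

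To compare genes with each other, levels were divided by transcript length in GENCODE M21. In uninjured tdTomato+EGFP+ cells *Trf* was at 189 CPM per kilobase, *Cp* at 136.9, *Slc40a1* at 105.4, *Tfrc* at 23.1, *Slc11a2* at 18.4, *Hmox1* at 13.5 and *Slc39a14* at 1.86 CPM per kilobase. *Ftl1* was above all of these, at 638.5 CPM per kilobase. In uninjured tdTomato-EGFP+ cells *Trf* was instead near the bottom, at 8.91 CPM per kilobase, under *Hmox1* at 12.1 CPM per kilobase. After injury in tdTomato+EGFP+ cells *Trf* and *Cp* were at 194 and 188.5, and *Slc40a1* at 4.32 CPM per kilobase, the lowest of the set. *Fth1* was not placed in this order because its principal transcripts differ in length.

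For a common yardstick across all genes, the difference between 2 populations was taken on the log2(CPM + 1) scale, and a gene at 10 CPM or more in either population was called where the difference was at least 1 in size and had the same sign on both plates (sorts) or in all 4 plate pairs (injury). Between sorts in uninjured cord, 1 of 8 members tested was called higher in tdTomato+EGFP+ cells and none lower, where 4.31% of 11198 genes were called higher and 3.61% lower. That member was *Trf*, with a difference of 4.34 (3.32 and 4.92 on the 2 plates), a 21.2-fold ratio of CPM and the 7th largest of the 11198, and since this contrast chose it nothing is read from its call. *Cp* came next at 0.91, and the other members lay within 0.33 of 0 in size.

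**Figure D5:**
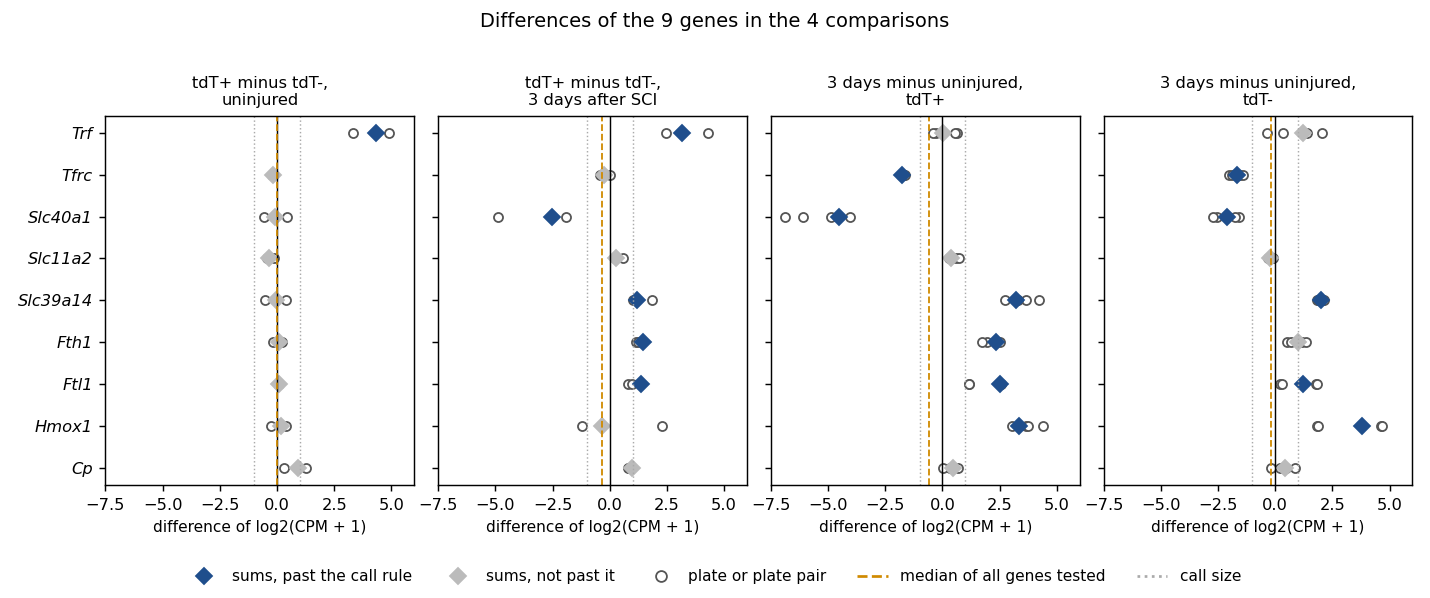
Difference of log2(CPM + 1) of each gene in the 4 comparisons; diamonds are population sums (blue where the call rule was met), open circles the values on each plate or plate pair, and the dashed line the median of all genes tested. *Slc40a1* reached -4.52 with injury in tdTomato+EGFP+ cells, while *Hmox1* reached 3.32 and 3.80 in the 2 sorts.

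Between sorts 3 days after injury, 4 of 9 members were called higher in tdTomato+EGFP+ cells and 1 lower, where 4.31% of 10631 genes were called higher and 17.9% lower. Among the 4 was *Trf*, which was chosen for its difference between sorts, so nothing is read from its call. *Trf* differed by 3.18 (4.31 and 2.48 on plates 211 and 215), *Fth1* by 1.43 (1.15 and 1.25), *Ftl1* by 1.38 (0.82 and 0.99) and *Slc39a14* by 1.19 (1.01 and 1.86). The sums of *Fth1* and *Ftl1* differed by more than either plate did because the 2 sorts drew unequal shares of their counts from plate 211. *Ftl1* reached a difference of 1 on neither plate, and with the mean of the 2 plate levels it was 0.86 and not called. *Slc40a1* was 6.12-fold lower, a difference of -2.53 (-1.92 and -4.87). *Hmox1* had opposite signs on the 2 plates, -1.23 and 2.28. Without the highest cell of each population the *Hmox1* difference went from -0.32 to 1.26. The median over the 9 members was 0.95, but *Trf* was among them, so nothing is read from it. Over all genes tested the median was -0.32 with CPM, 0.05 with TMM factors and 0.19 with DESeq2 size factors. Scaling mattered for all genes together: of all calls 19.4% were in the higher direction with CPM, 43.9% with TMM factors and 56.1% with DESeq2 size factors. Endothelial and pericyte markers were lower in tdTomato+EGFP+ cells here, as given above, and their part in the *Slc40a1* difference was not tested beyond leaving out cells with high *Pecam1*, which gave -1.21.

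With injury in tdTomato+EGFP+ cells, 4 of 9 members were called higher and 2 lower, where 10.8% of 11429 genes were called higher and 34.3% lower. *Hmox1* was 10.4-fold higher, *Slc39a14* 10.3-fold, *Ftl1* 5.70-fold and *Fth1* 5.11-fold, with log2 differences of 3.32, 3.24, 2.51 and 2.35. *Slc40a1* was 24.4-fold lower, with a log2 difference of -4.52 and -6.90 to -4.06 over the 4 plate pairs, and *Tfrc* was 3.43-fold lower, at -1.75 and -1.82 to -1.65. *Trf* stood at 0.04, with plate pairs of both signs, but at -1.51 and called lower without cells with high *Pecam1*. The median of all genes tested was -0.59 with CPM, 0.07 with TMM factors and 0.20 with DESeq2 size factors. The share of all calls in the higher direction was 24% with CPM, 54.8% with TMM factors and 61.7% with DESeq2 size factors. The *Tfrc* difference was -0.95 with DESeq2 size factors and -0.63 without cells with high *Pecam1*, and was then not called, whereas *Slc40a1* was still called at -2.85 without those cells.

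In tdTomato-EGFP+ cells injury gave 3 of 9 members called higher and 2 lower, where 9.52% of 11434 genes were called higher and 17% lower. *Hmox1* was 14.6-fold higher, with 1.84 to 4.67 over the plate pairs and a log2 difference of 1.88 without the highest cell of each population, against 3.80 with it. *Slc39a14* was 4.28-fold higher, with a log2 difference of 1.99, and *Ftl1* 2.31-fold higher, with 1.20 but 0.21 to 1.84 over the plate pairs. Without plate 211 the *Ftl1* difference was 0.26 and not called. *Fth1* missed the rule at 0.997. *Slc40a1* was 4.29-fold lower and *Tfrc* 3.24-fold lower, with log2 differences of -2.09 and -1.67. Leaving out the cells with high *Pecam1* gave -1.07 for *Slc40a1*, which was then not called, and -2.14 for *Tfrc*. The share of all calls in the higher direction was 35.9% with CPM, 56.9% with TMM factors and 53.7% with DESeq2 size factors.

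The 2 injury differences were set side by side by subtracting that of the tdTomato-EGFP+ cells from that of the tdTomato+EGFP+ cells, without a test. For *Fth1* the result was 1.36 (0.94 to 1.40 over the plate pairs), for *Ftl1* 1.30 (0.72 to 0.96, all below the value from the sums, in which plate 211 weighs unequally), for *Slc39a14* 1.25 (0.62 to 2.37) and for *Slc40a1* -2.43 (-5.30 to -1.36), each with 1 sign in all 4 pairs. *Tfrc* gave -0.08 and *Cp* 0.04, with pairs of both signs. For *Trf* it was -1.17 and for *Hmox1* -0.48, also with both signs.

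Other genes of iron and heme handling were read from 5 lists. Of 12 genes of iron uptake and reduction, 5 to 8 passed the level filter in a comparison. None of 5 was called between sorts in uninjured cord. Injury gave 3 higher and 2 lower of 8 in tdTomato+EGFP+ cells, and 4 higher and 1 lower of 7 in tdTomato-EGFP+ cells. Over all genes 10.8% were called higher and 34.3% lower in the former, against 9.52% and 17% in the latter, and the counts of the lists that follow stand beside the same shares. *Steap1* and *Steap2*, which encode metalloreductases of endosomal iron, went from 1 and 48 counts in uninjured tdTomato+EGFP+ cells to 3861 and 1858 counts after injury, and from 0 and 37 to 535 and 418 counts in tdTomato-EGFP+ cells. *Lcn2*, a siderophore-binding lipocalin, was at 1.25 and 38.2 CPM in uninjured and injured tdTomato+EGFP+ cells. *Slc39a8*, which encodes the transporter ZIP8, was lower after injury in both sorts, at 46.1 and then 1.959 CPM in tdTomato+EGFP+ cells and at 57.2 and then 6.32 CPM in tdTomato-EGFP+ cells. After injury *Steap1*, *Steap2* and *Lcn2* were the 3 of 7 genes called higher in tdTomato+EGFP+ than in tdTomato-EGFP+ cells, where 4.31% of all genes were, and none was called lower.

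Among 19 heme genes, injury gave 1 higher and 5 lower of 15 tested in tdTomato+EGFP+ cells, and 0 higher and 3 lower of 15 in tdTomato-EGFP+ cells, so the shares called lower were near those over all genes. *Alas1*, the first enzyme of heme synthesis, was at 291 and 370 CPM in the uninjured sorts and at 49.4 and 86.9 CPM in the injured ones. *Flvcr2*, a transporter first described for heme and known from brain endothelium, was at 116.6 and 135.2 CPM before injury and at 1.35 and 21.5 CPM after it. *Slc46a1* was the gene called higher, at 9.63 and 23.1 CPM in tdTomato+EGFP+ cells. Between sorts after injury 2 of 14 heme genes, *Flvcr2* and the heme transporter gene *Slc48a1*, were called lower in tdTomato+EGFP+ cells, where 17.9% of all genes were.

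Of the 9 genes of iron export and the hepcidin axis 4 were tested, and *Hfe* and *Neo1* were called lower with injury in tdTomato+EGFP+ cells, with *Hfe* at 80.5 and 23.4 CPM and *Neo1* at 29.2 and 12.1 CPM. *Hfe* was also called lower in tdTomato+EGFP+ than in tdTomato-EGFP+ cells after injury. No gene of this list was called with injury in tdTomato-EGFP+ cells. Of 13 genes of intracellular iron handling, which include the iron regulatory proteins *Aco1* and *Ireb2* and the ferritin receptor *Ncoa4*, 12 were tested with injury. *Slc25a37* and *Glrx3* were called higher and *Iscu* lower in tdTomato+EGFP+ cells, and *Slc25a28* lower in tdTomato-EGFP+ cells. None of this list was called between sorts at either time.

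The list of Nrf2 targets and ferroptosis genes held the gene most like *Trf* in its difference between sorts in uninjured cord. *Slc7a11*, which encodes the cystine transporter that supplies glutathione synthesis, was at 38.2 and 1.15 CPM in the 2 uninjured sorts, higher in tdTomato+EGFP+ cells, and at 190.1 and 60.8 CPM after injury. It was called in all 4 comparisons. With injury 3 of 12 genes of this list were called higher and 1 lower in tdTomato+EGFP+ cells, and 2 higher and 0 lower of 12 in tdTomato-EGFP+ cells. *Txnrd1*, a thioredoxin reductase gene, was called higher with injury in both sorts, at 29.7 and 85.8 CPM in tdTomato+EGFP+ cells and 22.95 and 58.96 CPM in tdTomato-EGFP+ cells. *Acsl4*, which encodes an acyl-CoA ligase that favours ferroptosis, was at 18.04 and 80.7 CPM in uninjured and injured tdTomato+EGFP+ cells, and *Bach1*, which encodes a heme-sensing repressor of *Hmox1*, was called lower there, at 58.3 and 22.1 CPM.

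Genes with the most similar pattern were found by Pearson correlation of log2(CPM + 1) over the 8 sums by population and plate, among 5982 candidate genes. These 8 points share plates and populations, so the values are descriptions. For *Trf* they were *Snhg11* (0.96), *Efemp1* (0.96) and *Lama1* (0.95), the last at 197 and 186 CPM in tdTomato+EGFP+ cells before and after injury and at 4.612 and 4.601 CPM in tdTomato-EGFP+ cells. For *Cp* they were *Tgfbi* (0.93), *Frzb* (0.91) and *Dnm3os* (0.91). For *Slc40a1* they were *Ctla2b*, *Stap2* and *Cavin2*, each at 0.997 or more, with *Cavin2*, a caveolar gene of endothelium, at 290.2 and 281 CPM in the 2 uninjured sorts and at 4.30 and 48.4 CPM in the injured ones. For *Hmox1* they were *Myl12a*, *Atp6v0c* and *Cenpf* (0.97 each). Between members, *Trf* and *Cp* correlated at 0.83 over these sums, but at 0.36 by rank (Spearman) over the 468 cells. *Trf* was picked for its difference between sorts, so nothing is read from these values. Other pairs were stronger over the sums, such as *Fth1* and *Ftl1* at 0.94 and *Tfrc* and *Hmox1* at -0.96.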

How the data were processed

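Single cells sorted from mouse spinal cord were profiled by Smart-seq3. The authors deposited 1 table of raw counts per gene and cell. The labels name the genome build mm10, and the aligner, the annotation and whether reads or molecular identifiers were counted are not given in the sources used here, which bears on the values per kilobase. Of 1968 cell columns 503 matched a label and 1465 were not used, and no columns were identical. Spike-in rows (92, 0.0314% of counts) were left out. Groups came from the labels on sort and treatment. The labels give 3 days, which was followed, although the series text gives a later day. Cells with 200 or more genes and under 20% mitochondrial counts were kept, none was removed by *Gfap* or *Ptprc*, and 34 were removed because *Pecam1* was above 1 on the ln(1 + counts per 10000) scale and above *Pdgfrb*, leaving 468. The study's limit of 1200 genes was applied only as an alternative. Depth ranged from 233 to 870504 counts per kept cell. Counts were summed per population and plate (CPM) with exact Poisson intervals, and shares have exact binomial intervals at 95%, both for counting error only. Clusters came from Seurat 5.3.0 in R 4.3.3 (20 components, resolution 0.5); doublets were not called. Alternatives used edgeR 4.0.16 (TMM) and DESeq2 1.42.0 (size factors) for scaling only, other weighting, filters, pseudocounts, call sizes and left-out plates. The calculation was run on simulated counts that varied between plates by counting error alone. That run cannot show how the call rule behaves where plates differ as they do here. The text names the members, at most the 3 largest called genes per pathway list, direction and comparison, markers beside a result, and the 3 nearest genes by pattern for *Trf*, *Slc40a1*, *Hmox1* and *Cp*. Outside that rule stand *Pi16*, *Lum* and *Slc1a3* in cluster 4, and *Scara5*, *Aco1*, *Ireb2* and *Ncoa4*. A gene of the oligodendrocyte list is not reported here and was left out of that list. Members and lists were chosen with earlier results of these data known.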

Additional observations from a re-analysis of the deposited data

Results flagged for a closer look

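*Slc11a2* was singled out because its difference with injury had opposite signs in the 2 sorts. In tdTomato+EGFP+ cells all 4 plate pairs were above 0, from 0.28 to 0.72 on the log2(CPM + 1) scale. In tdTomato-EGFP+ cells all 4 were below 0, from -0.31 to -0.08. The sums gave 0.37 and -0.24, and the first minus the second was 0.60. The difference was not tested, neither value met the call rule, and with TMM factors and DESeq2 size factors the tdTomato-EGFP+ value was 0.05 and 0.005, no longer below 0, and it was 0.28 without cells rich in oligodendrocyte markers.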

How the results depend on the processing

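No paired analysis was possible because the replicate numbers only name cells and no result comes from a test; values within each plate stand beside the differences between sorts. The number of members called between sorts in uninjured cord was 1 and became 3 with at most 1200 genes per cell, and 2 without cells with high *Pecam1*, without plate 209 and at a call size of 0.5. Between sorts after injury it was 5 and became 2 at a call size of 2, and with injury in tdTomato-EGFP+ cells it also went from 5 to 2. Other settings gave 4 to 7 in both, and 5 to 8 in tdTomato+EGFP+ cells, where it was 6. Shares over all genes were taken only for scaling. With injury in tdTomato+EGFP+ cells 10.8% of genes were called higher and 34.3% lower with CPM. TMM factors gave 21.6% and 17.8%, and DESeq2 size factors 24.9% and 15.4%. At the other settings these counts cannot be set against all genes, and nothing about the members is read from them. Only the limit of 1200 genes turned a called direction: *Trf* between uninjured sorts became -6.39 and *Tfrc* with injury in tdTomato+EGFP+ cells 6.67. It left 33 cells with 77216 counts, none of them injured tdTomato-EGFP+, so the other 2 comparisons could not be computed there. *Trf* between sorts was otherwise 3.12 to 6.58 before and 2.48 to 4.31 after injury, called throughout. *Slc39a14* between injured sorts was called in 9 of 13 settings and *Ftl1* in 10. Of 522 values of single members under the alternatives, 161 moved by less than their counting interval.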
